A study of Mus musculus with 44 samples.

Results

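The 34 genes described here encode the CD3 signalling chains of the T cell receptor, the CD4 and CD8 coreceptors, the costimulatory and inhibitory receptors that set the strength of T cell activation, the first enzymes and adaptors of receptor signalling, and receptors and transcription factors that mark mature T cells. They were taken as a list of gene symbols, which were matched to the Ensembl identifiers of the deposited gene tables. All 34 were found among the 29720 genes of each table. The list was not drawn from the measured values of any comparison, although it was drawn up when earlier results of these data were known.

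A T cell recognises antigen through a receptor whose variable chains have no signalling tail of their own. The signal is passed on by the CD3 gamma, delta and epsilon chains and by the zeta chain, the product of Cd247, whose tails are phosphorylated by the kinase Lck and then bound by the kinase Zap70. CD28 and ICOS strengthen that signal, whereas CTLA-4, PD-1 and LAG-3 restrain it. In the intestine these transcripts come from T cells of the lamina propria and from lymphocytes within the epithelium, and a few of them, among them Thy1, Tcf7 and Bcl11b, are also made by other cells.

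The study measured RNA in mouse models of intestinal inflammation with and without ATI-450, an inhibitor that acts on the p38 and MK2 kinase pathway. All mice were on a C57BL/6 background. In the transfer model, Rag1 null mice, which make no T or B cells of their own, received 400000 naive T cells by intraperitoneal injection and developed colitis 8 to 12 weeks later (inflamed), or received 200000 bulk T cells (non-inflamed). Inflammation in that model cannot be told apart from the number and kind of the injected cells, since both differ between these groups. In the TNFΔARE model, Tnf ∆ARE/+ mice, which lack an element that limits TNF production in 1 copy of the gene, were inflamed and Tnf +/+ littermates were the wild-type controls, and they were randomized at 16 weeks of age. Mice received ATI-450 at 3 mg/kg or vehicle, a second dose 16 h later, and were sampled 90 min after that dose, according to the protocols, while the series text gives a treatment time longer than these steps add up to. The transfer groups held 6 inflamed and 5 non-inflamed mice on vehicle and 6 and 6 on the inhibitor. The TNFΔARE groups held 5 inflamed and 5 wild-type mice on vehicle and 6 inflamed and 5 wild-type mice on the inhibitor. RNA came from snap-frozen distal colon and ileum, and the labels call each sample only intestine. These are bulk samples, so fewer T cells and less RNA per cell cannot be told apart. Each library is a separate sample in the labels, and the p-values measure the spread between those samples.

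Each transfer library held 5953607 to 22347011 estimated counts, and each TNFΔARE library held 5800923 to 13113931. Levels are given in CPM, which set a gene's count against the scaled total of its library within each model. Every transfer library but 1 held the distal colon transcript Hoxb13 at 102 to 613 CPM. Inflamed vehicle replicate 3 stood apart, with Hoxb13 at 0.0754 CPM and the small intestinal transcript Sis at 6399 CPM. Inflamed vehicle replicate 1 also held Sis, at 196 CPM, with Hoxb13 at 110 CPM. The remaining transfer libraries held Sis at 0 to 1.21 CPM. The TNFΔARE libraries held Sis at 746 to 4968 CPM and Hoxb13 at 0 to 0.925 CPM, so the models also differ in the region sampled. Pancreatic transcripts were found in 5 inflamed transfer libraries (Prss2 at 47.8 to 3408 CPM). Non-inflamed vehicle replicate 7 held the neutrophil transcript S100a8 at 30.3 CPM, against 0 to 1.80 CPM in the other 4 of its group. The B cell markers Cd79a, at 0 to 0.319 CPM, and Ms4a1, at 0 to 0.497 CPM, were low in every transfer library. The summed level of 10 B cell markers ran from 0.491 to 5.50 CPM in non-inflamed and from 5.79 to 12.1 CPM in inflamed transfer mice on vehicle.

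Of the 4 chains of the receptor complex, 3 are encoded in 1 cluster on chromosome 9, where Cd3g and Cd3d are read in opposite directions with 1354 bases between them and Cd3e lies 11.4 kb beyond Cd3d. These 3 genes rose in the transfer comparisons below, as did most other members, so the rise is not particular to the cluster. Their upstream sequences are shown here as a description. They are the bases just before each start site, from RefSeq on GRCm38.p6, at chr9:44981536-44981785 on the plus strand for Cd3d, chr9:44980432-44980681 on the minus strand for Cd3g and chr9:45009628-45009861 on the minus strand for Cd3e. Capitals mark every match on either strand to CTTTGA, the core bound by the TCF and LEF factors that include Tcf7 and Lef1 (TCAAAG on the other strand), and to AGGAAG, a core bound by ETS factors (CTTCCT on the other strand). For Cd3e, 16 of the 250 bases are left out because an annotated exon covers them.
Cd3d: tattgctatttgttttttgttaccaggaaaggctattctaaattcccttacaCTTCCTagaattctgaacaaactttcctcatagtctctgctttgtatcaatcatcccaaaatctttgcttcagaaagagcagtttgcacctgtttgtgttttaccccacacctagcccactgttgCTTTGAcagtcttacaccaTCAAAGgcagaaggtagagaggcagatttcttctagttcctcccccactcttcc
Cd3g: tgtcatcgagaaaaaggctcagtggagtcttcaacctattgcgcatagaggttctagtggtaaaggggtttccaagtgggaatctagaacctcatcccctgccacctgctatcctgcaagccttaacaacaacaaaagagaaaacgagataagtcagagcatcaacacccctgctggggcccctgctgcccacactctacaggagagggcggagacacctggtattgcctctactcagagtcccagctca
Cd3e: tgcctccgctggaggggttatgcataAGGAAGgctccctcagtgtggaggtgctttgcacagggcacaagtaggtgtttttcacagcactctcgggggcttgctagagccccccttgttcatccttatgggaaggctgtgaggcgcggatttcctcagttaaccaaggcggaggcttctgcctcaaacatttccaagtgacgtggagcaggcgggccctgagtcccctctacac
The Cd3d sequence held 2 matches to CTTTGA and 1 to AGGAAG, the Cd3e sequence held 1 to AGGAAG, and the Cd3g sequence held neither. RefSeq windows were matched for 22 of the 34 genes, which have 30 windows of 250 upstream bases because some genes have several starts. On either strand, CTTTGA was found in 16.7% of these 30 windows, against 13.8% of the 32851 upstream windows of the table. AGGAAG was found in 46.7%, against 29.5% of all windows. The RUNX core TGTGGT was found in 3 of the 30, against 14% of all windows, and the E box CANNTG in 80.0%, against 66.2%. Counted by gene, where several windows give more chances of a match, 5 of the 22 genes held CTTTGA, 12 held AGGAAG, 3 held TGTGGT and 18 held CANNTG. These letters do not overlap one another in the 3 sequences shown. A match describes the letters in these windows and not a bound site. Several other members are also neighbours. Cd28, Ctla4 and Icos lie in that order on chromosome 1, with 113.6 and 62.1 kb between them. Cd8b1 and Cd8a are 35.9 kb apart and Cd4 and Lag3 16.1 kb apart on chromosome 6, Cd5 and Cd6 are 50.3 kb apart on chromosome 19, and Tnfrsf4 and Tnfrsf18 are 9.6 kb apart on chromosome 4.

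As a summary over the 34 genes, the mean of their log2 CPM was taken in each library. In the transfer model it was 2.68 ± 0.743 (SD, n = 6) in inflamed mice on vehicle and -0.149 ± 1.18 (SD, n = 5) in non-inflamed mice on vehicle. On the inhibitor it was 3.34 ± 0.410 (SD, n = 6) in inflamed and -0.399 ± 0.809 (SD, n = 6) in non-inflamed mice. The vehicle groups overlapped, because non-inflamed replicate 7 reached 1.61 and inflamed replicate 3 stood at 1.44. The inhibitor groups did not overlap, with 2.94 as the lowest inflamed and 0.599 as the highest non-inflamed value. In the TNFΔARE model the mean was 2.22 ± 0.204 (SD, n = 5) in inflamed and 1.86 ± 0.752 (SD, n = 5) in wild-type mice on vehicle, and 2.12 ± 0.145 (SD, n = 6) and 1.78 ± 0.776 (SD, n = 5) on the inhibitor. The wild-type values spread from 0.869 to 2.60 on vehicle and the inflamed values from 1.96 to 2.47, so the inflamed range lay inside the wild-type range. Levels of the models come from tables normalized separately. In non-inflamed transfer mice between 0 and 10 of the 34 genes had no count in a library on vehicle and between 3 and 14 on the inhibitor.

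**Figure D1:**
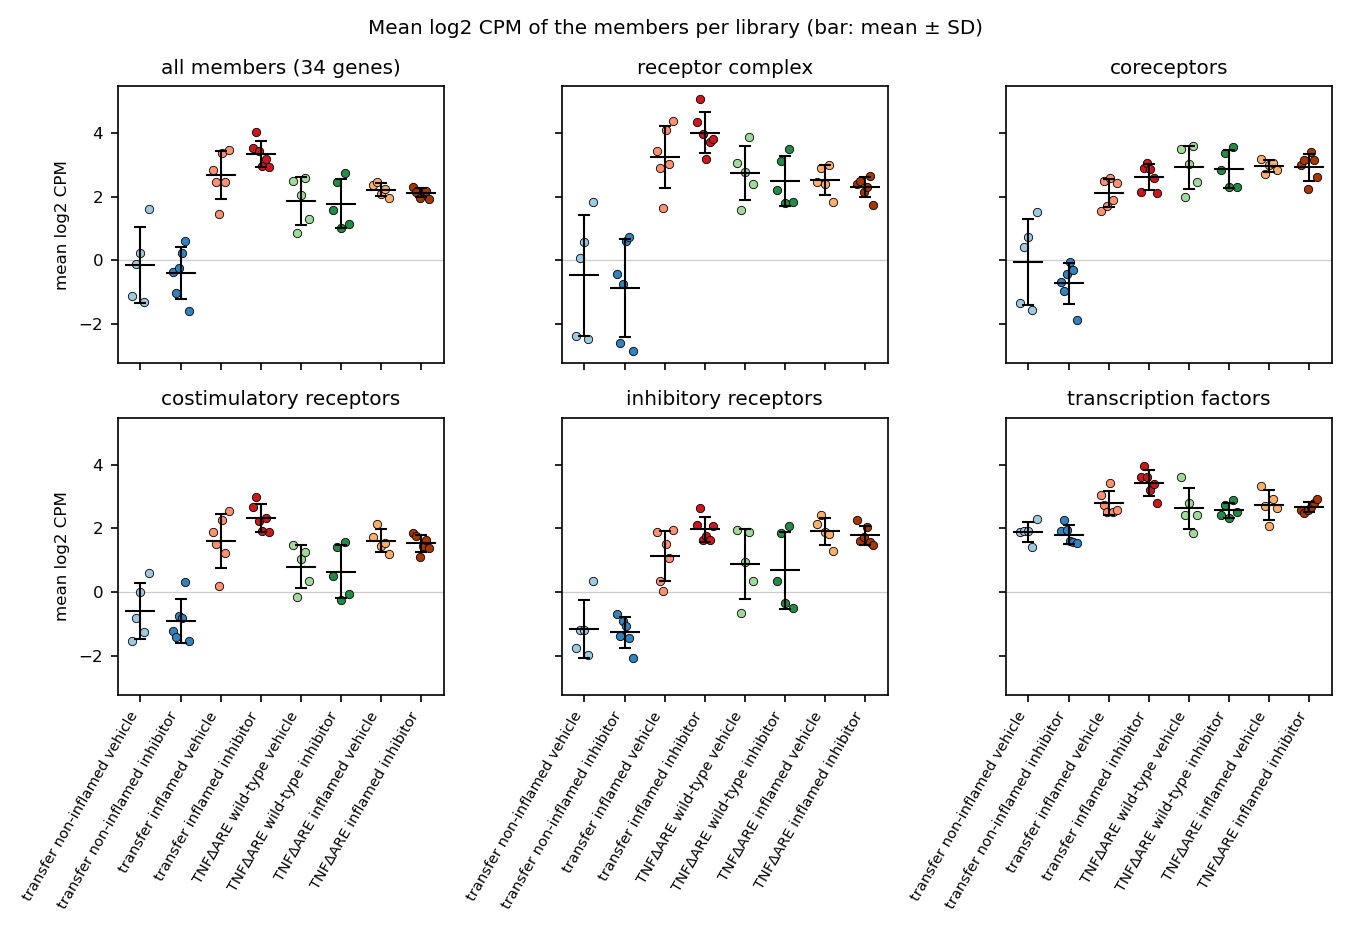
Mean log2 CPM (vertical axis) over all 34 genes and over 5 of their roles, 1 point per library in each of the 8 groups, with a bar at the group mean and its SD. In the panel of all members the inflamed transfer libraries on the inhibitor lie between 2.94 and 4.02 and the non-inflamed ones between -1.60 and 0.599, while the TNFΔARE groups overlap.

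Per kilobase of exon, the order of the members differed between inflamed transfer mice and the wild-type mice of the TNFΔARE model, both on vehicle. These groups differ in inflammation as well as in model. In inflamed transfer mice on vehicle the highest mean levels were those of Thy1 (14.9 CPM per kb), a surface glycoprotein of T cells and fibroblasts, Lck (12.0), Lat (8.67) and Cd4 (7.76). In wild-type mice on vehicle they were those of Ptprcap (6.98), whose product binds the phosphatase CD45, Lck (6.43), Tcf7 (4.87), Cd3d (4.10) and Cd8a (3.95). Averaged over the 44 libraries, the lowest were Ubash3a (0.126 CPM per kb), a negative regulator of receptor signalling, and the transcription factor gene Lef1 (0.132).

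**Figure D2:**
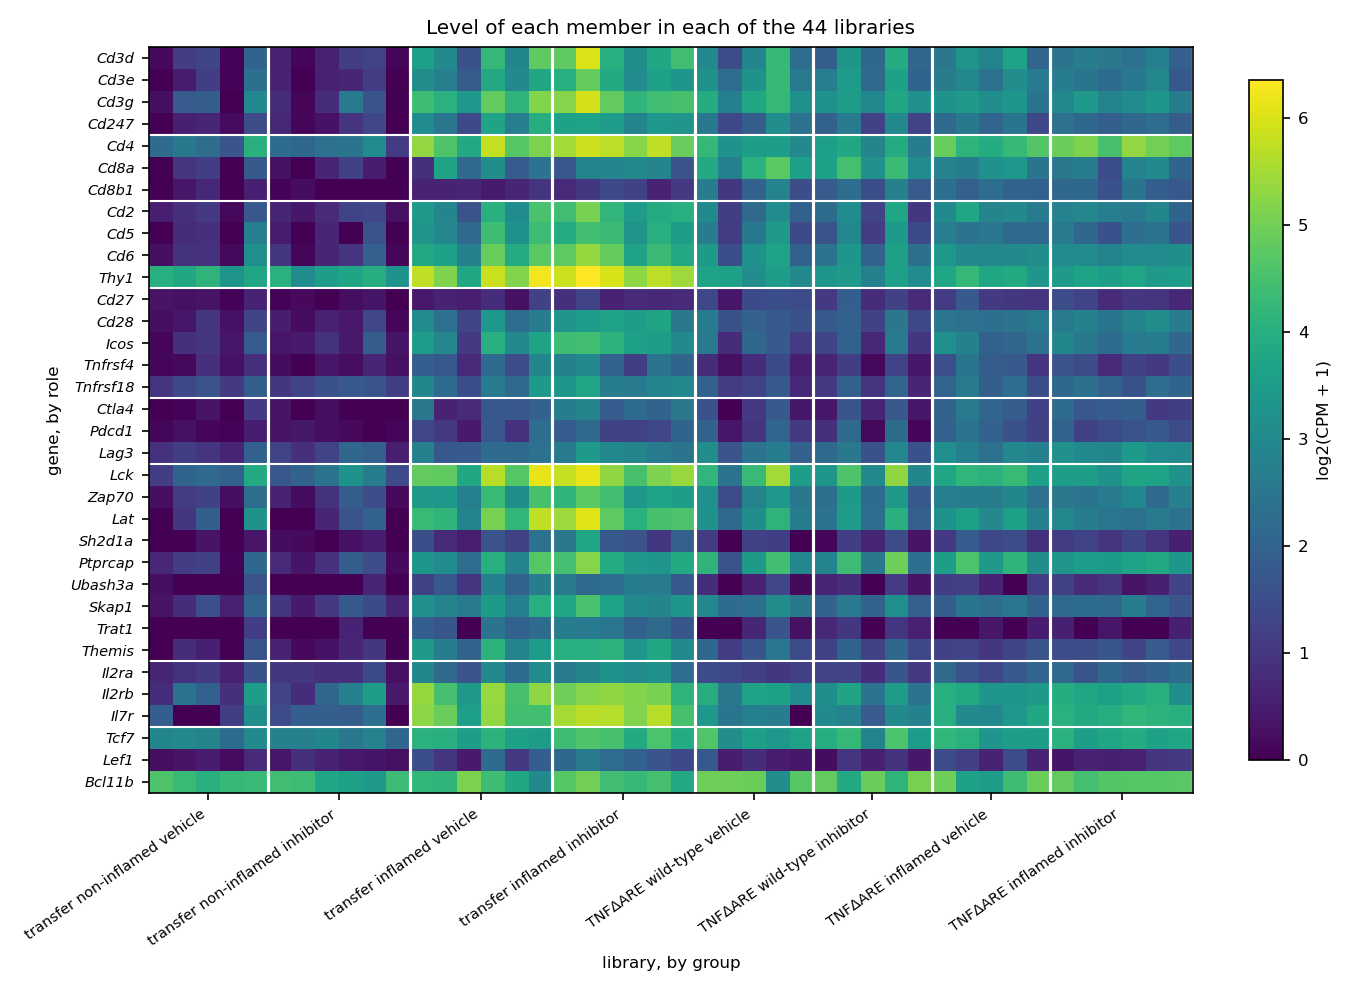
Level of each of the 34 genes (rows, ordered by role) in each of the 44 libraries (columns, ordered by group), as colour on a log2(CPM + 1) scale. Low levels are dark and high levels bright. The non-inflamed transfer libraries are dark for most rows, and the rows of Thy1, Tcf7 and Bcl11b keep a visible level in every group.

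In transfer mice on vehicle, the level of 27 of the 34 genes was raised in inflamed mice relative to non-inflamed mice, and none was lowered (edgeR quasi-likelihood test, Benjamini-Hochberg adjusted p under 0.05 over 15317 genes). Among all genes tested, 7.9% were called higher and 6.28% lower. All 34 had a positive log2 fold change, with a median of 2.81 against 0.05 over all genes tested and a range of 0.09 to 4.62. Folds are those of the fit, which adjusts for batch, and need not equal the ratio of the printed means. The genes not past the threshold were Cd8a, Cd8b1, Cd5, Cd27, Lat, Ubash3a and Bcl11b. The groups did not overlap for 10 of the 34 genes, against 3.36% of all genes tested in this direction: Cd3g, Cd28, Zap70, Sh2d1a, Ptprcap, Skap1, Themis, Il2ra, Il7r and Tcf7.

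All 4 chains of the receptor complex were higher. Cd3e, the epsilon chain, was at 0, 0.421, 1.26, 0.0491 and 3.96 CPM in non-inflamed replicates 1, 2, 4, 6 and 7, and the 6 inflamed libraries ran from 2.64 through a median of 7.43 to 13.4 CPM. The only overlap came from non-inflamed replicate 7, which exceeded inflamed replicate 3. The difference was 7.03-fold (log2 fold change 2.81, SE 0.84, edgeR adjusted p = 0.0306). Cd3g, the gamma chain, was at 0.192, 2.53, 2.80, 0 and 6.79 CPM in non-inflamed and at 9.42, 18.1 and 35 CPM (lowest, median, highest) in inflamed mice. These groups did not overlap, and the difference was 9.54-fold (log2 3.25, SE 0.97, edgeR adjusted p = 0.0300). Calls for Cd3e and Cd3g were lost when some single libraries were left out, with edgeR adjusted p up to 0.107 and 0.0886. Cd3d, the delta chain, rose from 1.19 ± 1.22 (SD, n = 5) to 11.9 ± 9.12 CPM (SD, n = 6), with a fitted fold of 12.1. Cd247, the zeta chain, rose from 0.594 ± 0.689 to 7.70 ± 4.87 CPM (SD, n = 5 and 6), with a fitted fold of 11.9.

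Among the coreceptors, Cd4 was higher and Cd8a and Cd8b1 did not pass the threshold. Cd4, which marks helper T cells and at a low level some macrophages, was at 3.64, 4.90, 3.93, 2.21 and 15.3 CPM in non-inflamed and at 13.2, 29.2 and 53.8 CPM (lowest, median, highest) in inflamed mice. Replicate 7 of the first group exceeded replicate 3 of the second, and the other libraries were apart. The difference was 4.92-fold (log2 2.30, SE 0.49, edgeR adjusted p = 0.00517). Cd8a, which marks cytotoxic and many intraepithelial T cells, was at 0, 0.948, 1.26, 0 and 2.42 CPM against 0.856, 3.97 and 11.6 CPM, with overlapping groups and a log2 fold change of 2.44 (SE 0.96, edgeR adjusted p = 0.0909). Without non-inflamed replicate 7 Cd8a passed the threshold, with a log2 fold change of 4.32 (edgeR adjusted p = 0.0235). Cd8b1, whose product pairs with CD8 alpha on conventional cytotoxic T cells, stayed under 1 CPM in every vehicle library of this model, at 0, 0.316, 0.666, 0 and 0.463 against 0.363, 0.570 and 0.926 CPM. Its groups overlapped (log2 1.12, edgeR adjusted p = 0.283).

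Of the surface proteins that take part in adhesion and tune the receptor signal, 3 of 4 were higher. Thy1 was at 15.2, 13.1, 16.4, 8.84 and 12.4 CPM in non-inflamed and at 13.1, 43.8 and 75.4 CPM (lowest, median, highest) in inflamed mice. Inflamed replicate 3, at the lowest value, was the only inflamed library within the range of the controls. The difference was 4.02-fold (log2 2.01, SE 0.35, edgeR adjusted p = 0.00235). Cd2, an adhesion receptor, rose from 0.953 ± 0.846 to 10.5 ± 7.10 CPM (SD, n = 5 and 6), and Cd6, a scavenger receptor family member that binds CD166, had a log2 fold change of 2.81 (SE 0.86). Its neighbour Cd5, which restrains receptor signalling, had a log2 fold change of 2.62 that did not pass (edgeR adjusted p = 0.0668).

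Costimulatory receptors were higher for 4 of 5 genes, the exception being Cd27 (log2 1.46, edgeR adjusted p = 0.125). Cd28, the main costimulatory receptor of naive T cells, rose from 0.648 ± 0.573 to 5.37 ± 2.85 CPM (SD, n = 5 and 6), with a fitted fold of 7.68 and no overlap. Icos, which supports effector and follicular helper T cells, was at 0.0639, 0.842, 0.998, 0.295 and 2.57 CPM in non-inflamed and at 1.13, 8.71 and 15.2 CPM (lowest, median, highest) in inflamed mice. Only inflamed replicate 3 lay under the highest control, and the difference was 8.47-fold (log2 3.08, SE 0.73, edgeR adjusted p = 0.00921). Tnfrsf4, which encodes OX40, was at 0.0639, 0.105, 0.799, 0.246 and 0.822 CPM against 0.678, 2.54 and 6.54 CPM, and was higher with a log2 fold change of 2.94 (SE 0.70, edgeR adjusted p = 0.00879). Its groups overlapped only at inflamed replicate 3. Tnfrsf18, which encodes GITR, rose from 1.71 ± 0.757 to 5.09 ± 2.79 CPM (SD, n = 5 and 6).

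All 3 inhibitory receptors were higher too, at low levels. Ctla4 was at 0, 0.0527, 0.266, 0 and 1.13 CPM in non-inflamed and at 0.536, 2.33 and 4.79 CPM in inflamed mice (log2 2.87, SE 0.79, edgeR adjusted p = 0.0163). Non-inflamed replicate 7 lay above inflamed replicates 2 and 3. Pdcd1, which encodes PD-1, was at 0.0639, 0.211, 0.0666, 0.0491 and 0.411 CPM against 0.377, 1.33 and 3.93 CPM, an 11.2-fold difference (log2 3.49, SE 0.64, edgeR adjusted p = 0.00245). Lag3, whose product binds MHC class II in place of CD4, was at 0.894, 1.26, 0.932, 0.589 and 2.93 CPM against 2.39, 3.59 and 5.82 CPM and rose 2.78-fold (log2 1.48, SE 0.46, edgeR adjusted p = 0.0376). For Pdcd1 and Lag3 the overlap again came from non-inflamed replicate 7. Calls for Ctla4 and Lag3 were lost when some single libraries were left out, with edgeR adjusted p up to 0.0819 and 0.168.

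Of the 9 proximal signalling genes, 7 were higher. Lck was at 1.21, 3.16, 3.53, 2.95 and 13.7 CPM in non-inflamed and at 12.9, 27.2 and 69.5 CPM (lowest, median, highest) in inflamed mice, a 6.97-fold difference (log2 2.80, SE 0.58, edgeR adjusted p = 0.00467). Its groups overlapped only between non-inflamed replicate 7 and inflamed replicate 3. Zap70 rose from 1.36 ± 1.5 to 12.2 ± 6.40 CPM, and Themis, an adaptor needed for thymic selection, rose from 0.672 ± 0.889 to 8.51 ± 4.71 CPM (SD, n = 5 and 6), with a fitted fold of 12.0. Sh2d1a, the SAP adaptor, had the highest fitted change (log2 4.62, SE 0.98), with 3 of 5 non-inflamed libraries at 0 counts, and Trat1 (log2 3.24, SE 0.99) had 4 of 5 at 0, so both sizes depend on the prior count. Skap1 and Ptprcap passed with log2 fold changes of 2.76 and 3.26. Lat, the membrane scaffold phosphorylated by Zap70, had a change as large (log2 3.21, SE 1.10) that did not pass (edgeR adjusted p = 0.0565), and Ubash3a (log2 2.30) did not pass either (edgeR adjusted p = 0.0649).

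The cytokine receptors were higher for 3 of 3 genes. Il7r, the receptor chain for the survival cytokine IL-7, was at 2.75, 0, 0, 1.28 and 7.61 CPM in non-inflamed and at 11.1, 24.8 and 39.1 CPM (lowest, median, highest) in inflamed mice, with no overlap (10.2-fold, log2 3.35, SE 0.87, edgeR adjusted p = 0.0153). Il2ra, which encodes CD25, was at 0.575, 0.895, 1.13, 0.491 and 2.06 CPM against 2.11, 5.07 and 7.52 CPM, also without overlap (4.74-fold, log2 2.25, SE 0.43, edgeR adjusted p = 0.00322). Il2rb, which T cells and natural killer cells share, rose from 3.97 ± 4.14 to 28.5 ± 12.8 CPM (SD, n = 5 and 6).

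Tcf7, the factor TCF-1 of naive and memory T cells and innate lymphoid cells, had the smallest p-value of the 34 genes although its change was modest. It was at 6.52, 7.11, 6.46, 3.78 and 7.04 CPM in non-inflamed and at 10.2, 13.3 and 16.2 CPM (lowest, median, highest) in inflamed mice. The groups did not overlap, and the difference was 2.51-fold (log2 1.33, SE 0.20, edgeR adjusted p = 0.00142). Lef1 was higher with a log2 fold change of 2.61 (SE 0.57). Bcl11b, a factor that fixes T cell identity and is also made in the epithelium of several organs, was at 23.1, 18.8, 14.8, 17.9 and 18.8 CPM against 7.12, 17.1 and 33.1 CPM, a log2 difference of 0.09 with an SE of 0.32 (edgeR adjusted p = 0.878). The direction for Bcl11b turned under other settings. In the 3 libraries of non-inflamed mice with no Cd3e count, vehicle replicate 1 and inhibitor replicates 2 and 6, Bcl11b was still at 23.1, 19.4 and 19.4 CPM and Thy1 at 15.2, 7.51 and 8.62 CPM.

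**Figure D3:**
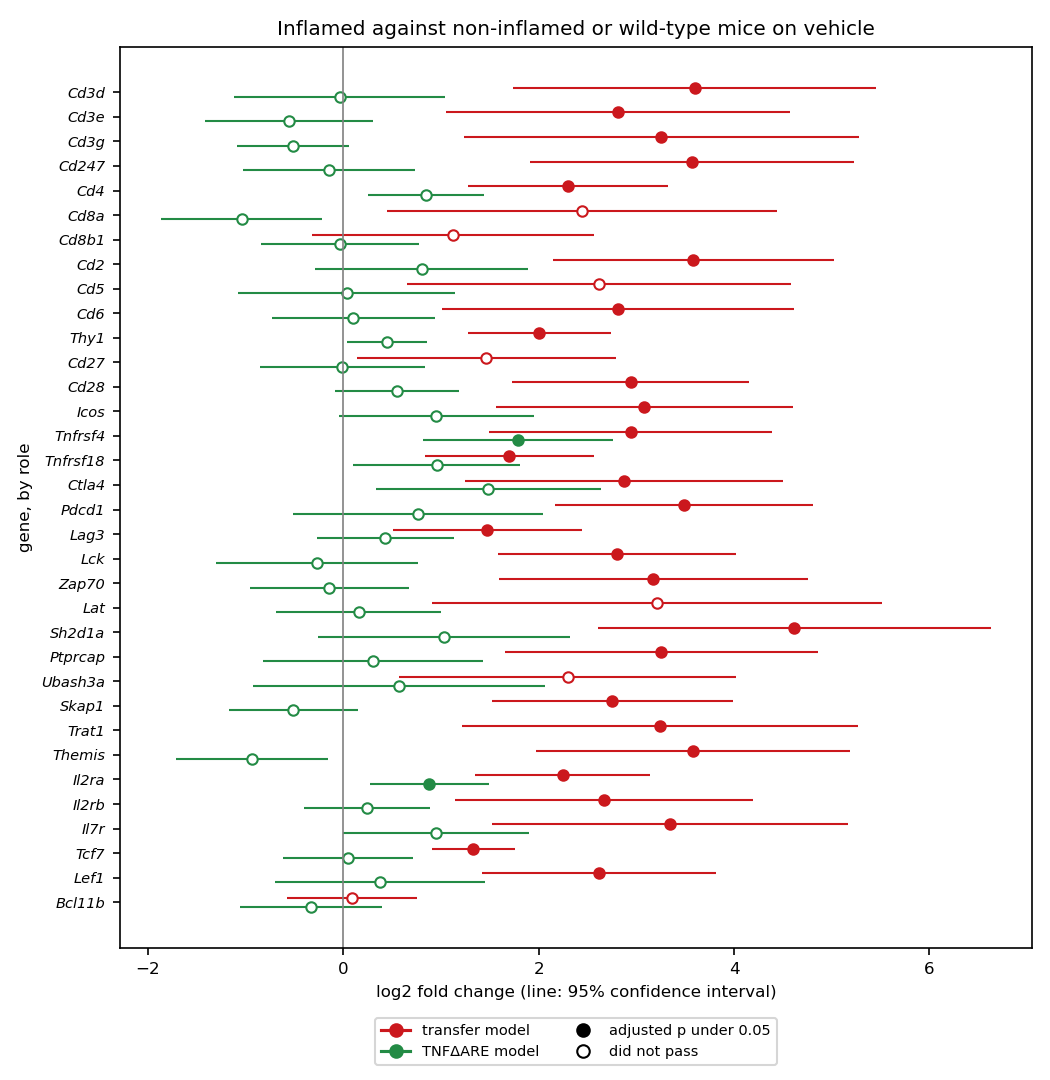
Log2 fold change of inflamed over control mice on vehicle (horizontal axis) with its 95% interval for each gene (rows, by role), in the transfer and TNFΔARE models; filled points have an adjusted p under 0.05. In the transfer model 27 points are filled and all 34 lie above 0, whereas in the TNFΔARE model 2 of 33 are filled and points lie on both sides of 0.

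These calls rested on libraries with other differences. Fitted on the compared groups alone, or within batch 4, the only batch holding both vehicle groups (5 inflamed and 2 non-inflamed libraries), edgeR called none of the 34 genes and no other gene at an adjusted p under 0.05. The members' median log2 fold change was then 2.15 and 2.13, with 14 and 13 members at an unadjusted p under 0.05. Without non-inflamed replicate 6 the count was 15 and without replicate 7 it was 32. Leaving out the libraries with pancreatic or small intestinal transcripts gave 19. Icos, Tnfrsf4 and Il7r were among the genes not called without non-inflamed replicate 6 (edgeR adjusted p = 0.0532, 0.0506 and 0.0709). Transcripts of other cells moved with the same groups. The summed level of 10 monocyte and macrophage markers ran from 179 to 523 CPM in non-inflamed mice, highest in replicate 7, and from 294 CPM in replicate 3 to 4260 CPM in inflamed mice, and 9 of the 10 were higher. Of 8 neutrophil markers 7 were higher. Of 6 small intestinal enterocyte genes 5 were higher, but their summed level had a median of 90.3 CPM in inflamed and 81.6 CPM in non-inflamed mice and reached 43281 CPM in inflamed replicate 3 alone. Lower were 2 of 6 colonocyte genes, whose summed median was 1230 CPM in inflamed and 5644 CPM in non-inflamed mice, and 3 of 6 smooth muscle and stroma genes, with summed medians of 1735 and 3844 CPM. The part of these differences in the T cell genes was not tested.

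In TNFΔARE mice on vehicle, 2 of 33 tested genes were higher and none was lower. They were Tnfrsf4 and Il2ra, both induced on activated and regulatory T cells. Over the 14370 genes tested, 8.66% were called higher and 7.27% lower. Trat1 was below the count filter. The log2 fold change was positive for 21 and negative for 12 genes, with a median of 0.24 against -0.02 over all genes tested and a range of -1.04 to 1.79. No member's groups were without overlap in the higher direction, against 6.01% of all genes tested. Within batch 2, with 4 inflamed and 5 wild-type libraries, 1 member was called.

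Tnfrsf4 was at 0.794, 0.211, 0.792, 1.67 and 0.436 CPM in the 5 wild-type mice and at 1.94, 4.57, 2.68, 2.45 and 0.938 CPM in the 5 inflamed mice. Inflamed replicate 5 lay under wild-type replicate 4, and the other 4 inflamed libraries were above all controls. The difference was 3.46-fold (log2 1.79, SE 0.46, edgeR adjusted p = 0.0110). Il2ra was at 1.73, 1.58, 1.29, 1.05 and 1.31 CPM in wild-type and at 3.59, 2.07, 1.56, 2.45 and 3.22 CPM in inflamed mice, a 1.84-fold difference (log2 0.88, SE 0.29, edgeR adjusted p = 0.0446). Inflamed replicate 3 lay within the wild-type range. The call for Il2ra did not hold under DESeq2 (adjusted p = 0.0517), and its adjusted p over the alternative settings ran from 0.0336 to 0.298.

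The receptor complex did not pass for any of its 4 genes. Cd3e was at 8.52, 3.79, 8.61, 18.3 and 5.02 CPM in wild-type and at 5.52, 6.64, 4.14, 7.69 and 5.23 CPM in inflamed mice (log2 -0.56, edgeR adjusted p = 0.436). All inflamed libraries lay within the wild-type range, which wild-type replicate 4 extended upwards. Cd3g was at 14.3, 5.69, 13.1, 17.7 and 8.07 CPM against 8.39, 9.80, 8.05, 9.09 and 4.42 CPM (log2 -0.52, edgeR adjusted p = 0.240). Cd3d and Cd247 had log2 fold changes of -0.04 and -0.14. Lck was at 17.3, 4.42, 18.4, 43.3 and 10.8 CPM against 12.5, 17.1, 16.1, 18.9 and 11 CPM, and its log2 fold change of -0.27 turned positive without wild-type replicate 4.

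The costimulatory and inhibitory receptors had mostly positive values that did not pass. Icos was at 5.20, 0.737, 3.37, 2.51 and 1.20 CPM in wild-type and at 8.10, 5.88, 2.91, 3.26 and 4.29 CPM in inflamed mice (log2 0.95, edgeR adjusted p = 0.205). Ctla4 was at 2.02, 0, 1.09, 2.40 and 0.327 CPM against 3.01, 5.23, 3.24, 2.68 and 1.34 CPM (log2 1.48, edgeR adjusted p = 0.0774). For Ctla4 only inflamed replicate 5 lay within the wild-type range. Lag3 was at 7.87, 2.21, 4.36, 5.44 and 2.84 CPM against 8.10, 5.66, 4.25, 6.64 and 5.90 CPM, and Pdcd1 at 3.03, 0.316, 0.990, 3.24 and 1.09 against 3.01, 4.46, 3.02, 1.98 and 1.34 CPM, both with overlapping groups.

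Thy1 was at 12.0, 11.4, 7.62, 10.6 and 7.2 CPM in wild-type and at 12.3, 17.9, 12.6, 13.5 and 8.98 CPM in inflamed mice (log2 0.45, edgeR adjusted p = 0.138). Il7r was at 9.53, 4.53, 5.74, 5.44 and 0 CPM against 14.8, 7.08, 6.82, 9.55 and 13.0 CPM (log2 0.95, edgeR adjusted p = 0.182). In both genes the highest wild-type library lay inside the inflamed range. Tcf7 was at 24.0, 7.79, 11.1, 9.51 and 11.6 CPM against 17.6, 15.7, 8.94, 10.6 and 10.9 CPM, and Bcl11b at 30.0, 29.8, 29.3, 7.74 and 25.0 against 30.0, 11.5, 10.3, 19.8 and 28.8 CPM. The log2 fold changes of these factors, 0.05 and -0.33, were smaller than the spread, and that of Tcf7 changed sign under other settings. The summed level of 10 B cell markers ran from 13.3 CPM in wild-type replicate 2 to 285 CPM in replicate 1, and from 150 to 395 CPM in inflamed mice. Replicate 2 was also the wild-type library with the lowest mean over the 34 genes, and the part of B cell content in the spread of the T cell genes was not tested.

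The coreceptor genes Cd4 and Cd8a had values of opposite sign in TNFΔARE mice, without a call for either. Cd4 was at 17.8, 8.53, 10.7, 10.8 and 7.09 CPM in wild-type and at 28.6, 16.6, 14.4, 18.1 and 24.3 CPM in inflamed mice, and only wild-type replicate 1 reached into the inflamed range. The log2 fold change was 0.84 (SE 0.28) with an edgeR adjusted p of 0.050024, just over the threshold, and the call was made under DESeq2 (adjusted p = 0.0309). Cd8a was at 13.9, 5.69, 15.6, 25.6 and 11 CPM against 6.09, 5.34, 8.27, 9.44 and 4.56 CPM (log2 -1.04, SE 0.39, edgeR adjusted p = 0.0843). It passed without wild-type replicate 2, the wild-type library with the lowest Cd8a (log2 -1.24, edgeR adjusted p = 0.0304). Cd8b1 was at 5.34, 1.05, 2.97, 6.17 and 1.85 CPM against 4.02, 2.83, 3.91, 3.03 and 2.95 CPM, a log2 difference of -0.03 whose sign changed when single libraries were left out.

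Taken within a library, the ratio of Cd4 to Cd8a CPM was 0.420 to 1.5 (median 0.684) in wild-type mice on vehicle and 1.74 to 5.32 (median 3.10) in inflamed TNFΔARE mice on vehicle. On the inhibitor it was 0.612 to 0.971 (median 0.736) in wild-type and 4.36 to 11.6 (median 6.38) in inflamed mice. Neither pair of groups overlapped. The ratios are not adjusted for batch. On the inhibitor 5 inflamed libraries came from batch 3 and 1 from batch 2, and all 5 wild-type libraries came from batch 2. Inflamed vehicle replicate 5, the only library of its group in batch 3, had the highest ratio of that group, 5.32. These ratios are descriptions of unequal change and were not tested. In transfer mice the ratio spread from 2.03 to 45.4 (median 7.23) in inflamed and from 3.11 to 6.32 (median 5.17, 3 of 5 libraries with at least 3 Cd8a counts) in non-inflamed mice on vehicle. On the inhibitor it ran from 5.22 to 18.9 (median 8.95) in inflamed mice and from 3.35 to 18 (median 12.3, 4 of 6 libraries) in non-inflamed mice. The ratio of 45.4 came from inflamed vehicle replicate 1, with 5 Cd8a counts, and the next highest of that group was 9.43. In non-inflamed replicates 1 and 5 on the inhibitor, ratios of 18 and 17.7 rested on 4 and 3 Cd8a counts. Every transfer library with a ratio thus held more Cd4 than Cd8a transcript. Markers of intraepithelial lymphocytes fell in the TNFΔARE vehicle comparison for 2 of 4 genes tested, the surface receptor gene Cd160 (log2 -1.70) and the granzyme gene Gzma (log2 -2.16), and their part in the Cd8a values was not tested.

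**Figure D4:**
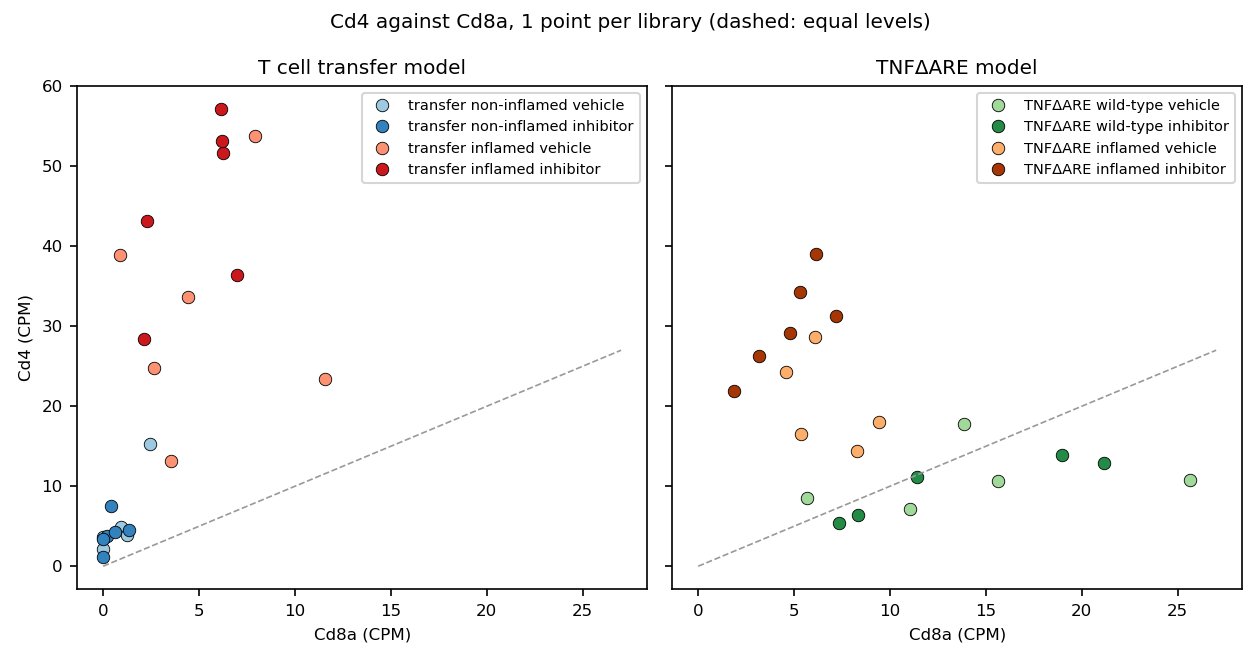
Cd4 (vertical axis) against Cd8a (horizontal axis) in CPM, 1 point per library, for the transfer model (left) and the TNFΔARE model (right), with a dashed line where both are equal. In the TNFΔARE panel every inflamed library lies above the line, with ratios of 1.74 to 11.6, and the wild-type libraries lie near or under it.

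The inflammation difference on vehicle was then compared between the models, in 1 fit over all 44 libraries. It was greater in transfer than in TNFΔARE mice for 13 of 34 genes and smaller for none. Over all 15565 genes tested, 3.37% were called higher and 1.91% lower. The median of the 34 differences was 2.50 on the log2 scale against 0.05 over all genes tested, and all 34 were positive (0.42 to 5.31). The 13 genes held all 4 chains of the receptor complex, with differences of 3.63 for Cd3d, 3.37 for Cd3e, 3.76 for Cd3g and 3.71 for Cd247. They also held Cd8a (3.48, SE 1.00, edgeR adjusted p = 0.0344), Thy1 (1.55, SE 0.39, edgeR adjusted p = 0.0155), Cd28 (2.38), Tcf7 (1.27) and the signalling genes Lck (3.06), Zap70 (3.31), Skap1 (3.25), Trat1 (5.31) and Themis (4.51, SE 0.87, edgeR adjusted p = 0.00175). None of the 3 inhibitory and none of the 3 cytokine receptors passed, with differences of 1.35 for Ctla4 (edgeR adjusted p = 0.506) and 1.37 for Il2ra (edgeR adjusted p = 0.117). Tnfrsf4, called in both models, had a difference of 1.14 that did not pass (edgeR adjusted p = 0.519). The models differ in the region sampled, in the level of their controls and in the source of the T cells, and these cannot be told apart here. The count fell to 4 without transfer non-inflamed replicate 6 and rose to 29 without replicate 7.

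On the inhibitor, 33 of 34 genes had a higher level in inflamed transfer mice than in their controls, and none a lower one, against 14% of all genes called higher and 11% lower. The median log2 fold change was 4.20, against 0.02 over all genes tested. The groups of all 33 did not overlap, against 7.39% of genes tested in this direction. The exception was Bcl11b, at 15.4 ± 4.75 and 21.4 ± 6.01 CPM (SD, n = 6 and 6; log2 0.59, edgeR adjusted p = 0.139). Both genes of CD8 were called here. Cd8a ran from 0 through 0.317 to 1.36 CPM in non-inflamed and from 2.13 through 6.16 to 6.97 CPM in inflamed mice (log2 3.43, SE 0.93, edgeR adjusted p = 0.0121). Cd8b1 ran from 0 to 0.166 CPM, with 4 of 6 libraries at 0, against 0.514, 1.07 and 1.63 CPM (log2 4.37, SE 0.81, edgeR adjusted p = 0.00034).

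Cd3e ran from 0 through 0.508 to 1.13 CPM in non-inflamed and from 7.39 through 12.6 to 27.9 CPM in inflamed mice on the inhibitor (log2 5.13, SE 0.87, edgeR adjusted p = 0.000342). Cd4 ran from 1.13 through 4.01 to 7.52 CPM against 28.5, 47.4 and 57.2 CPM (log2 3.37, SE 0.46, edgeR adjusted p = 7.41e-05). Tcf7 rose from 5.41 ± 1.17 to 19.2 ± 4.35 CPM (SD, n = 6 and 6; log2 1.87, SE 0.18, edgeR adjusted p = 4.23e-06). Ctla4 had a log2 fold change of 5.62 (SE 0.85, edgeR adjusted p = 7.85e-05), with 2.58 to 6.39 CPM in inflamed and 0 to 0.262 CPM in non-inflamed mice. Thy1 ran from 7.51 through 11.4 to 15.7 CPM against 37.7, 54.8 and 80.9 CPM, Lck from 1.76 through 3.76 to 8.41 against 21.9, 39.5 and 69.2 CPM, and Il7r from 0 through 2.69 to 3.97 against 21.8, 46.6 and 50.7 CPM. None of these groups overlapped. Every alternative setting that was run gave 31 to 33 genes. Markers of other cells moved with these groups as well, since 9 of 10 monocyte and macrophage, 7 of 8 neutrophil, 7 of 7 dendritic cell and 3 of 4 mast cell markers were higher and 3 of 6 smooth muscle and stroma genes lower. Their part in the T cell genes was not tested.

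In TNFΔARE mice on the inhibitor, Cd4 alone of the 33 genes tested was called higher than in wild-type mice, against 7.91% of all genes called higher and 4.56% lower. It was at 11.1, 13.0, 6.44, 13.9 and 5.42 CPM in wild-type mice and at 21.9, 30.2 and 39.0 CPM (lowest, median, highest) in inflamed mice. The groups did not overlap, and the difference was 2.74-fold (log2 1.45, SE 0.37, edgeR adjusted p = 0.0121). Il7r was at 7.2, 6.00, 2.56, 7.2 and 5.93 CPM against 13.7, 15.4 and 17.5 CPM, without overlap but not past the threshold (log2 1.26, edgeR adjusted p = 0.178). These 2 genes were the members without overlap in the higher direction, against 12.6% of all genes tested. Cd8a was at 11.4, 21.2, 8.33, 19 and 7.37 CPM in wild-type and at 1.88, 5.07 and 7.19 CPM in inflamed mice. The inflamed libraries were all lower, although the fit with batch did not call it (log2 -1.24, edgeR adjusted p = 0.212). The share of all genes without overlap in the lower direction is not given here, so this separation is not weighed against it. Of the 6 inflamed libraries 5 came from batch 3 and all 5 wild-type libraries from batch 2. Without inflamed replicate 1, the only inflamed library of batch 2, no gene of the list was called, and without wild-type replicate 4 there were 6. With 1 inflamed library in batch 2, that batch alone gives no usable check of the Cd4 call. Il2ra (log2 1.10, edgeR adjusted p = 0.0578) and Tnfrsf4 (log2 1.79, edgeR adjusted p = 0.0778) did not pass.

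The effect of ATI-450 itself was not detected in any of the 34 genes by edgeR. In inflamed transfer mice 0 of 34 passed, and 0 had an unadjusted p under 0.05. Over all genes tested, 1 gene was called (0.00653%) and 530 had an unadjusted p under 0.05. The members' log2 differences were positive for 32 and negative for 2 genes, with a range of -0.15 to 1.32. Their median was 0.53, against -0.002 over all genes tested. Genes of the same cells can move together in bulk samples, so these signs are not 34 separate results. The members' median was -0.07 within batch 4, which held 1 inhibitor library beside 5 on vehicle. The 95% intervals were wide for many genes. Cd4 had a difference of 0.39 (-0.66 to 1.44), Cd3e of 0.91 (-0.87 to 2.70), Ctla4 of 0.97 (-0.41 to 2.34) and Ubash3a of 1.32 (-0.58 to 3.21). They were narrower for Thy1, at 0.02 (-0.68 to 0.71), and for Tcf7, at 0.22 (-0.20 to 0.64).

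In non-inflamed transfer mice 0 of 34 genes passed and 1, Cd8b1 (log2 -2.58), had an unadjusted edgeR p under 0.05, with a median over the members of -0.53. In inflamed TNFΔARE mice 0 of 33 passed and 0 had an unadjusted p under 0.05, with a median of 0.13 and a range from -0.92 for Lef1 to 0.47 for Il7r. Cd4 had a difference of 0.45 (95% interval -0.23 to 1.14), Il2ra of 0.21 (-0.45 to 0.87) and Cd3e of -0.20 (-1.29 to 0.90). In wild-type mice 0 of 33 passed and 0 had an unadjusted p under 0.05, with a median of -0.16. In these 3 comparisons 0% of all genes tested were called, with 222, 216 and 411 genes at an unadjusted p under 0.05. DESeq2 called 0 members in each of the 4 inhibitor comparisons.

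**Figure D5:**
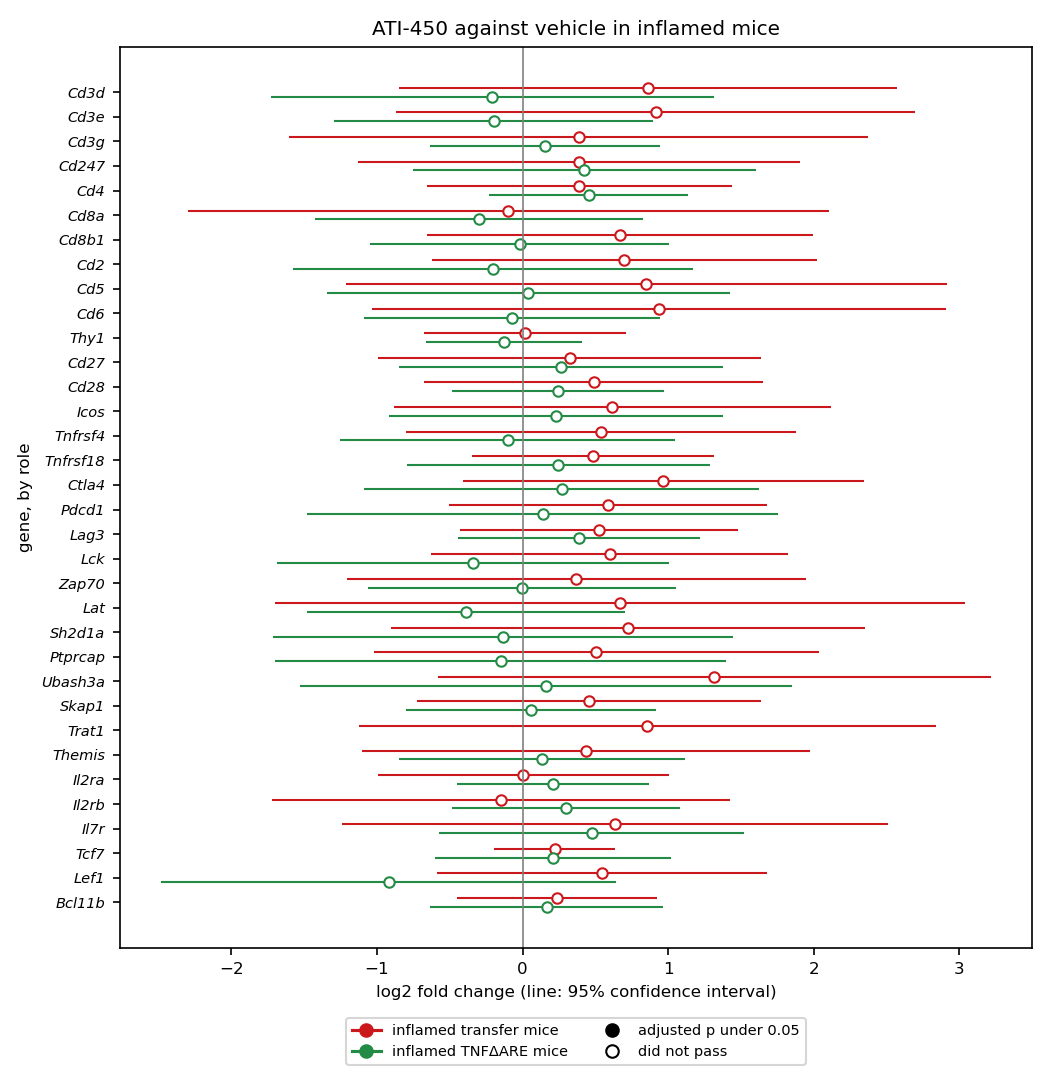
Log2 difference of ATI-450 over vehicle in inflamed mice (horizontal axis) with its 95% interval for each gene (rows, by role), in the transfer and TNFΔARE models. Every point is open (no adjusted p under 0.05), and the intervals of all genes include 0.

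Whether the inhibitor difference depended on inflammation was tested as an interaction. In transfer mice 0 of 34 genes passed in edgeR and 0 in DESeq2, against 0% of all genes called by edgeR. All 34 values were positive, with a median of 1.03 against 0.003 over all genes tested. Genes of the same cells can move together in bulk samples, so a common sign is not 34 separate results. Of the members, 4 had an unadjusted edgeR p under 0.05, Ubash3a (3.96), Cd8b1 (3.25), Ctla4 (2.74) and Tcf7 (0.54), while 339 of all genes tested did. Ubash3a, Cd8b1 and Ctla4 were at 0 counts in several non-inflamed libraries, so the sizes of their values depend on the prior count. In TNFΔARE mice 0 of 33 genes passed in edgeR and 0 in DESeq2, 0 had an unadjusted p under 0.05, and 0% of all genes were called, with 252 at an unadjusted p under 0.05. The members' values ran from -0.39 for Cd2 to 0.67 for Lag3, with a median of 0.20.

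Other genes of the pathway were read from lists of receptor constant regions, further signalling proteins, and ligands with further costimulatory receptors. The constant regions, which belong to the variable chains of the receptor itself, were higher for 3 of 3 genes in transfer mice on vehicle. Trbc2 was at 0.447, 1.47, 4.26, 0.589 and 6.89 CPM in non-inflamed and at 7.01 to 70.2 CPM in inflamed mice (log2 3.49, SE 0.93, edgeR adjusted p = 0.0165), and Trac had a log2 fold change of 2.49 (SE 0.79, edgeR adjusted p = 0.0369). Trbc1 and Trbc2 are near-identical, so the split of reads between them is uncertain. None of the 3 passed in the TNFΔARE model on vehicle, with Trac at 0.19 and Trbc2 at 0.05 on the log2 scale. The delta constant region was not analysed here.

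Among the further signalling genes, 15 of 27 were higher and none was lower in transfer mice on vehicle, led by Prkcq, the protein kinase C theta gene (log2 1.62, SE 0.26), Gimap5, a GTPase gene of lymphocyte survival (log2 2.23, SE 0.35), and Ptpn6, which encodes the phosphatase SHP-1 of all blood cells (log2 1.04, SE 0.17). The TNFΔARE comparison on vehicle had 7 of 26 higher, with the smallest p-values for Malt1 (log2 0.83), Lcp2 (log2 1.49) and Vav1 (log2 1.20), which myeloid cells also use. Of the ligands and further receptors, 11 of 16 tested were higher in transfer mice, with Tigit, an inhibitory receptor (log2 3.88, SE 0.47), Tnfrsf9, which encodes 4-1BB (log2 3.96, SE 0.74), and the CD28 ligand Cd86 of antigen-presenting cells (log2 2.03, SE 0.47). Of these, 5 of 15 were higher in the TNFΔARE model, led by Havcr2, which encodes TIM-3 on T and myeloid cells (log2 1.68), and by the ligands Cd86 (log2 1.29) and Cd80 (log2 1.94). On the inhibitor, the 3 lists had 3 of 3, 20 of 27 and 13 of 16 genes higher and 0, 1 and 1 lower in transfer mice, and 0 of 3, 4 of 26 and 4 of 15 in TNFΔARE mice.

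Monocyte and macrophage markers were higher for 9 of 10 and neutrophil markers for 6 of 6 genes in TNFΔARE mice on vehicle. In transfer mice on vehicle these lists had 9 of 10 and 7 of 8 higher. The other myeloid lists differed more. Dendritic cell markers were higher for 4 of 7 genes in TNFΔARE and 2 of 7 in transfer mice, and mast cell markers for 0 of 2 and 3 of 4. Regulatory T cell markers gave 1 higher gene (Izumo1r) and 1 lower gene (Gpr83) of 5 in transfer mice and none of 5 in TNFΔARE mice. Foxp3, the defining factor of that lineage, was at 0 to 0.621 CPM in the transfer model, under the count filter. In the TNFΔARE model it reached 2.26 CPM, with a log2 fold change of 1.67 on vehicle that did not pass (SE 0.76, edgeR adjusted p = 0.155). Of the B cell markers, 0 of 10 passed in TNFΔARE mice on vehicle, whereas in transfer mice 2 of 3 tested were higher on vehicle and 3 of 3 on the inhibitor. Most of the 10 were under the count filter in the transfer model, and Fcmr had no counts there. Their summed level in inflamed transfer mice reached only 12.1 CPM on vehicle and 14.4 CPM on the inhibitor. The cell source of the 3 tested genes was not tested. Natural killer and innate lymphoid markers, whose cells share Il2rb, Thy1, Il7r and Tcf7 with T cells, were higher for 4 of 10 genes in transfer mice and 1 of 8 in TNFΔARE mice, where 1 more was lower. Their summed level ran from 66.5 to 140 CPM in non-inflamed and from 112 to 177 CPM in inflamed transfer mice on vehicle, and their part in those 4 genes was not tested.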

How the data were processed

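RNA from 44 mouse intestine samples was sequenced from poly-A libraries that keep the strand. Per the submitters' processing notes, Salmon 0.14.1 and DESeq2 were used, with mm10 and GRCm38 named as builds. The deposited tables hold estimated counts per gene, which were rounded to whole numbers here, and a normalized signal, whose method is not given in the sources used here. The members and all gene lists were chosen with earlier results of these data known.

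Each model was fitted with edgeR 4.0.16 in R 4.3.3 (TMM scaling, filterByExpr, robust quasi-likelihood fit) on its 4 groups with the labelled batch as a term, and the difference between models in a fit of all 44 libraries with batch nested in model. Tests were two-sided, p-values were adjusted over every gene tested (Benjamini-Hochberg), and the threshold was 0.05. The scripts were tested on simulated data. CPM used TMM-scaled library sizes. The mean over genes used log2 CPM with a prior count of 2, and lengths were exon unions of GENCODE. As alternatives, the fit was repeated with RLE scaling, with DESeq2 1.42.0, with limma 3.58.1 and voom weights, without the count filter, without batch, with replicate numbers as a block, on only the groups compared, within 1 batch per comparison and with each library left out. Added after seeing the data were edgeR's older fit, limma on log2 of the deposited signal plus 1, and leaving out libraries with pancreatic or small intestinal transcripts. No pair of libraries held the same counts.

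Every one of the 34 genes could be named. Values in every sample of the vehicle groups, or the lowest, median and highest in groups of 6, are given for the gene with the highest mean level in each role, for Cd3e, Cd4, Cd8a, Cd8b1, Ctla4, Icos and Il2ra, and for the 3 genes with the smallest p in each vehicle comparison of inflammation. For the other pathway lists, Trac, Trbc2 and the 3 called genes with the smallest p per list and vehicle comparison are named. Ileum and colon were not separated by the labels, and counting error limits genes with few counts.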

Additional observations from a re-analysis of the deposited data

Results flagged for a closer look

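Among 72 mean levels of a role in a group, 3 had 1 library far from the rest by Dixon's criterion, which chance would give in about 1 of 20 groups. The mean log2 CPM of the cytokine receptor genes was 2.51 in transfer non-inflamed vehicle replicate 7 and -0.343 to 0.284 in the other 4 libraries of that group. The same mean was 3.50 in transfer inflamed inhibitor replicate 6 and 4.25 to 4.66 in the other 5. The mean of the proximal signalling genes was 1.93 in TNFΔARE inflamed vehicle replicate 2 and 1.5 to 1.60 in the other 4.

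The log2 difference of inflamed and control mice on vehicle was itself different between the models for 13 genes in edgeR's test of that difference. Over all 15565 genes tested, 3.37% were called higher and 1.91% lower. The excess in transfer mice was 3.63 for Cd3d, 3.37 for Cd3e, 3.76 for Cd3g and 3.71 for Cd247. It was 3.48 for Cd8a, 1.55 for Thy1, 2.38 for Cd28 and 1.27 for Tcf7. For the signalling genes it was 3.06 for Lck, 3.31 for Zap70, 3.25 for Skap1, 5.31 for Trat1 and 4.51 for Themis. Trat1 had no count in 4 of 5 transfer controls and few in the TNFΔARE model, so the size of its value depends on the prior count. The count of 13 fell to 4 without transfer non-inflamed replicate 6. Region sampled, level of the controls and source of the T cells also differ between the models and cannot be told apart here.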

How the results depend on the processing

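In transfer mice on vehicle the count of called members, 27, became 0 with the compared groups alone and 0 within batch 4, where edgeR called 0 of all genes with fewer samples. Leaving out single libraries gave 15 to 32, and the other alternatives gave 19 to 32. In TNFΔARE mice on vehicle the count of 2 became 7 with voom weights and 1 with no count filter, the older edgeR fit, the deposited signal, the compared groups alone or batch 2 alone, with 1 to 3 when single libraries were left out. In TNFΔARE mice on the inhibitor the count of 1 became 9 with voom weights, 6 with no batch term, 2 with the compared groups alone and 0 with the replicate block, the deposited signal or batch 2 alone, with 0 to 6 over single libraries left out. Between models the count of 13 became 26 with voom weights and 32 with the replicate block, with 4 to 29 over single libraries left out and 9 without the libraries with pancreatic or small intestinal transcripts. Except where 0 of all genes is stated, counts under other settings, here and above, lack the share of all genes called under that setting. They do not separate a change in the members from a general change in the number of calls. All inhibitor and interaction counts stayed at 0 in every alternative run, of which those within batch 4 or batch 3 of inflamed mice had 1 library in a group and say little, and the median in inflamed transfer mice was -0.60 with the replicate block and -0.07 within batch 4. Replicate numbers are not stated to pair the samples. Same-numbered libraries deviated together (r over 0.1) in at most 3 of 4 pairs of a comparison. That share came from the inhibitor comparison in non-inflamed transfer mice (median r 0.323). So few pairs cannot decide whether the numbers pair samples. On vehicle in transfer mice the log2 difference of Bcl11b, 0.09, became -0.18 with voom weights, -0.054 with no batch term, -0.046 with the compared groups alone, -0.98 with the block, -0.41 without the pancreatic or small intestinal libraries and -0.019 within batch 4, and ran from -0.18 to 0.25 over single libraries left out. In TNFΔARE mice on vehicle, Lck (-0.27) became 0.22 with voom weights and 0.38 on the deposited signal, with -0.52 to 0.30 over single libraries left out. Cd8b1 (-0.03) became 0.27 and 0.22, with -0.26 to 0.25, and Tcf7 (0.05) became -0.028 with voom weights, -0.0086 with no batch term and -0.028 with the block, with -0.11 to 0.42. Of the values of single members under all alternatives, 561 kept their direction and side of the threshold, 72 lost the call, 15 gained one and 23 turned direction; the cause was not tested. Mean levels over members moved by less than 1 SD in every alternative run. Counting error limits genes with few counts, such as Cd8b1, Ctla4, Pdcd1, Cd27, Trat1, Sh2d1a, Lef1 and Ubash3a.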
